A study of Sus scrofa with 48 samples.

Results

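The solute carriers are a large superfamily of membrane proteins, and 46 of the 1862 genes named on the porcine array belonged to it by symbol. A probe was taken when its pig accession led to a gene whose symbol starts with SLC, apart from SLC27A1, SLC27A3, SLC2A2 and SLC2A4, which were left out. This gave 62 probes among 43603, with 1 probe for 33 genes and up to 4 for the other 13. RNA of gluteus medius muscle (GM), liver and kidney was measured on 48 one-colour arrays, 16 per tissue, from 16 F2 pigs (Swiss Large White barrows and females, sampled at slaughter). The 8 F2 C pigs descended through the male line from F0 boars on a standard diet, and the 8 F2 E pigs from F0 boars whose diet had, over several months of growth, extra methionine, choline, betaine, folate and vitamins of the B group. The F1 boars between them had the standard diet, and each line held 4 barrows and 4 females. The lines also came from different sires and dams, so that diet and descent cannot be told apart. The labels name neither the litter nor the grandsire of a pig. Per the study's methods, each line came from a few F1 boars and sows, so pigs of a line can be littermates or share a sire. The line tests below take each pig as independent and could not allow for this, so their p-values may be too small.

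Most solute carriers move a small molecule or ion across a membrane by exchange with, or together with, another one, often sodium or protons. The proximal tubule of the kidney returns glucose, amino acids and phosphate from the filtrate to the blood and secretes organic ions into it, hepatocytes take up substrates from portal blood, and muscle relies mainly on carriers that serve its mitochondria, its acid balance and its fuel supply. Several carriers also move the methyl donors of the F0 diet or their precursors, such as choline.

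Signals are quantile-normalized log2 values of the median spot intensity, so that 1 unit is a 2-fold difference. Levels across tissues come from arrays normalized together and line comparisons from arrays normalized within a tissue, so the same probe has slightly different values in the 2 settings. A value after ± is the SD over 16 pigs for a mean signal and limma's SE for a difference. Values of different probes are not set against each other, since probes differ in brightness. The median raw signal of an array lay between 48 and 88.5 in muscle, between 88 and 167 in liver and between 48 and 240.5 for the kidneys, and 18948 to 36804 spots per array were well above background. The number of arrays limits the precision. All 19 probes of the muscle marker genes (such as CKM and MYH7) and all 11 of the liver marker genes (such as ALB and TTR) separated their tissue's arrays from every other array, and 3 of 4 kidney marker probes did so, with 1 of 2 probes of PTH1R as the exception.

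Among the 62 probes, 52 were well above background on all 16 kidney arrays, 41 on all 16 liver arrays and 27 on all 16 GM arrays. The probes of 2 genes did not pass the presence filter in any group and were not tested, among them that of the chloride exchanger SLC26A3, which was near background on all 48 arrays. The other 60 probes, of 44 genes, were tested.

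The tissue comparison asked where each carrier was highest. A probe was called highest in a tissue when it exceeded both other tissues by at least 2-fold at an adjusted p below 0.05 (limma with the pig as a block). Kidney was highest for 23 of the 60 probes (38.3%), against 8.47% of all 34499 probes tested. GM was highest for 6 probes against a background of 9.93%, and liver for 4 against 6.69%. Those shares lay near the background, while that of kidney did not. Among the 24 carrier probes well above background on all 48 arrays, 6 were highest in kidney (25%, against 9.62% of the 16055 probes of that kind), so the kidney share was smaller among them. In the opposite direction, 18 probes (30%) were lowest in GM (7.13% of all probes), 3 in liver (4.02%) and 3 in kidney (3.66%). With the brightest probe of each gene (by its mean over the 48 arrays), 18 genes were highest in kidney, 4 in liver and 3 in GM, and 11 genes were neither highest nor lowest anywhere. In 6 of the 13 genes with several probes, the probes differed in the tissue called highest, and these genes are pointed out where they appear. The median difference of kidney minus GM over the 60 probes was 1.00 on the log2 scale, beside 0.05 over all probes, that of liver minus GM was 0.30 beside 0.01, and that of liver minus kidney was -0.85 beside -0.02. In a whole tissue, more cells of a type and more RNA per cell cannot be told apart. Each slide held arrays of a single tissue, and the kidney slides were scanned on a day of their own. Tissue and slide, and for kidney the scan day, thus cannot be told apart either.

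**Figure D1:**
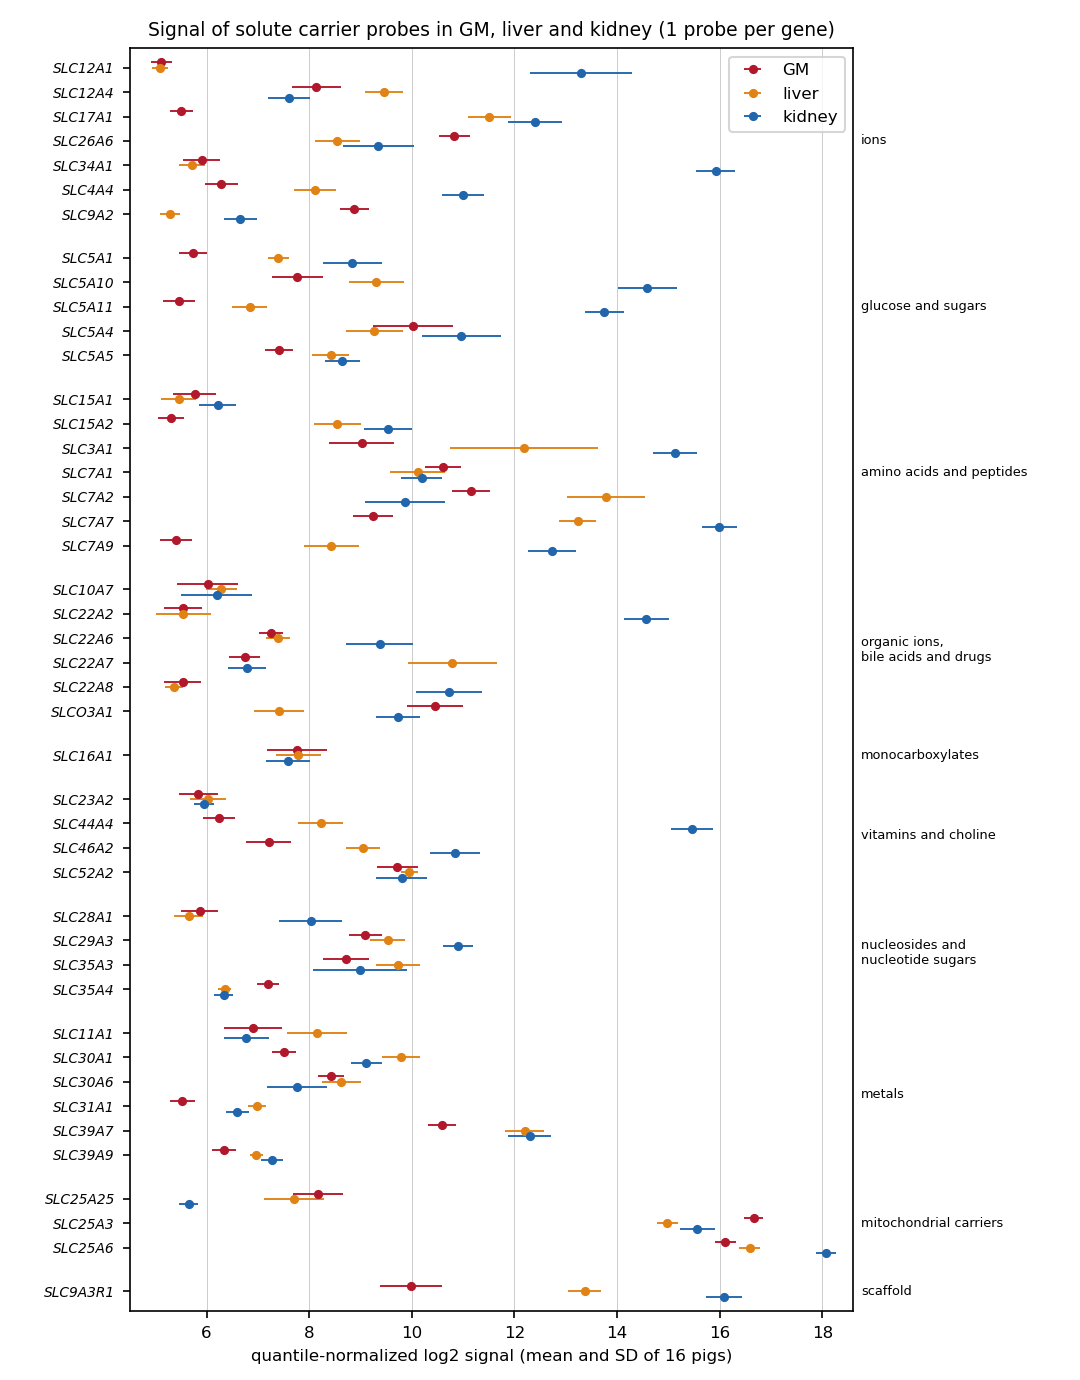
Quantile-normalized log2 signal of the brightest probe of each of the 44 genes tested in GM (red), liver (orange) and kidney (blue), grouped by substrate family. Points are means and bars SDs over 16 pigs. Levels may be compared along a row but not between rows. The kidney point lies to the right of both others in 18 genes by at least 2-fold.

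Of the 7 ion carriers tested, 3 were highest in kidney. SLC34A1, the sodium phosphate cotransporter of the proximal tubule brush border, had its lowest, median and highest kidney signals at 14.96, 16.04 and 16.40. In GM the same 3 values were 5.11, 5.94 and 6.37, and in liver 5.39, 5.66 and 6.23. Every kidney was far above every other sample, and the signal was well above background on only 1 GM array and 2 liver arrays. Kidney exceeded GM by 10.01 ± 0.116 (SE) and liver by 10.19 ± 0.116 on the log2 scale (limma adjusted p = 4.6e-51 and 2.34e-50), in 16 of 16 pigs each time. Both differences were measured mostly against signals near background, so their exact size is uncertain. The exact paired sign-flip test over the 16 pigs gave p = 3.05e-05 for both, the smallest it can give. SLC12A1, the sodium, potassium and chloride cotransporter of the thick ascending limb and the target of loop diuretics, ranged from 11.18 to 15.17 in kidney with a median of 13.46. No GM or liver array had it well above background, so only bounds hold there. Its kidney signal was at least 163-fold higher than in GM and at least 202-fold higher than in liver (limma adjusted p = 2.12e-36 and 3.23e-36). Such a bound sets the kidney mean against the higher of the dim probe's own signal and the lowest signal of any probe well above background, array by array. SLC4A4, which carries sodium and bicarbonate across the basolateral membrane of the proximal tubule, had a median of 11.07 in kidney, 7.99 in liver and 6.31 in GM, with SDs of 0.41, 0.41 and 0.33 over 16 pigs. It was thus in the order kidney, liver and GM, with no overlap between the tissues.

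The other ion carriers were highest in liver, in GM or in no single tissue. SLC12A4, a potassium chloride cotransporter involved in cell volume, had values from 8.81 to 9.98 in liver (median 9.48), from 7.56 to 9.53 in GM (median 8.07) and from 7.18 to 8.72 in kidney (median 7.53). Liver was higher than both others in all 16 pigs, although the tissue ranges of liver and GM overlapped. The differences were 1.84 ± 0.144 from kidney and 1.31 ± 0.144 from GM (limma adjusted p = 4.86e-16 and 1.83e-11). SLC9A2, a sodium proton exchanger, ranged from 8.38 to 9.38 in GM (median 8.83) and from 5.82 to 7.21 in kidney (median 6.62) with its brighter probe, A_72_P236687, and no liver array had it well above background. GM exceeded kidney by 2.22 ± 0.096 (adjusted p = 3.81e-26) and was at least 9.51-fold above liver. Its other probe, A_72_P088396, differed by only 0.35 between GM and kidney, with means of 7.90 ± 0.28 and 7.55 ± 0.45, and was not well above background in liver either. Liver was thus lowest by both probes, whereas the GM call rested on 1 of 2. SLC26A6, an exchanger of chloride with bicarbonate, oxalate and other anions, was highest in GM by both probes. Its brighter probe had values from 10.04 to 11.29 in GM (median 10.93), from 7.74 to 10.44 in kidney (median 9.41) and from 7.80 to 9.31 in liver (median 8.67). GM was higher in all 16 pigs, by 1.48 ± 0.168 over kidney and 2.29 ± 0.168 over liver (adjusted p = 5.28e-11 and 3.79e-17). SLC17A1, a phosphate and urate carrier of hepatocytes and the proximal tubule, was at 12.40 ± 0.53 in kidney and 11.51 ± 0.42 in liver, and no GM array had it well above background, from which kidney differed by at least 87.8-fold and liver by at least 47.1-fold.

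The sodium-coupled carriers of the SLC5 family were 5 genes, and 3 were highest in kidney. SLC5A11, a carrier of myo-inositol and glucose, had its lowest, median and highest signals at 13.08, 13.74 and 14.49 in kidney and at 6.23, 6.80 and 7.39 in liver, and no GM array was well above background. The kidney signal was at least 223-fold above GM, and exceeded liver by 6.91 ± 0.12 in 16 of 16 pigs (adjusted p = 7.12e-43). A dimmer second probe of the gene was not called, with a kidney mean of 6.23. SLC5A1, the high-affinity glucose carrier of gut and late proximal tubule, had a median of 8.78 in kidney and 7.43 in liver, at least 7.04-fold and 2.6-fold above GM by the means. SLC5A10, a carrier of mannose and fructose, gave opposite orders with its 2 probes. The probe A_72_P177876 ranged from 13.75 to 15.91 in kidney (median 14.60), from 8.39 to 10.40 in liver (median 9.29) and from 7.17 to 8.98 in GM (median 7.62). The probe A_72_P435369 ranged from 9.32 to 11.63 in GM (median 10.64), from 7.90 to 9.03 in liver (median 8.28) and from 6.97 to 8.02 in kidney (median 7.18). The first was highest in kidney by 5.28 ± 0.176 over liver and the second highest in GM by 2.16 over liver and 3.23 over kidney, both called, so the tissue of this gene was not settled by the array. SLC5A4, another member of the family, reached 10.96 ± 0.77 in kidney, 10.02 ± 0.78 in GM and 9.27 ± 0.55 in liver and was called in no tissue, and SLC5A5, the iodide carrier of the thyroid, was lowest in GM (7.41 ± 0.27, against 8.42 in liver and 8.64 in kidney).

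Of the 7 carriers of amino acids and peptides, 3 were highest in kidney, and 4 were lowest in GM. SLC3A1 and SLC7A9 are the heavy and the light subunit of the cystine and dibasic amino acid carrier of the proximal tubule, whose loss causes cystinuria. SLC7A9 had values from 11.67 to 13.22 in kidney (median 12.88) and from 7.69 to 9.94 in liver (median 8.31), and was not well above background in GM. Kidney exceeded liver by 4.31 ± 0.154 in all 16 pigs (adjusted p = 1.83e-29) and GM by at least 110-fold. The brighter SLC3A1 probe, A_72_P041371, ranged from 14.26 to 15.77 in kidney (median 15.22), from 9.07 to 13.59 in liver (median 12.74) and from 7.56 to 9.83 in GM (median 9.05). No kidney overlapped with a liver, and the liver SD of 1.44 was the largest of any of the 60 probes in any tissue. Kidney was higher than liver by 2.95 ± 0.263 and than GM by 6.11 ± 0.263 (adjusted p = 4.17e-14 and 2.8e-26). SLC7A7, the light subunit of a basolateral exchanger that passes dibasic amino acids on to the blood, was at 15.99 ± 0.34, 13.23 ± 0.36 and 9.24 ± 0.39 in kidney, liver and GM with its brighter probe. Its dimmer probe, A_72_P389333, was highest in kidney but not called lowest in GM.

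The cationic amino acid carrier SLC7A2, which supplies arginine to hepatocytes, was highest in liver instead. Its liver signals ran from 12.10 to 15.17 (median 13.92), those of GM from 10.55 to 11.81 (median 11.10) and those of kidney from 8.83 to 11.55 (median 9.64). No liver overlapped with another tissue, and the differences were 2.63 ± 0.223 from GM and 3.92 ± 0.223 from kidney in all 16 pigs (adjusted p = 5.68e-15 and 3.89e-21). Its relative SLC7A1, the carrier of most other cells, spanned only 0.49 between the tissue means of its brighter probe. Of the proton-coupled peptide carriers, SLC15A2 was not well above background in GM and reached 9.53 ± 0.47 in kidney and 8.55 ± 0.46 in liver. SLC15A1, the peptide carrier of the gut, was dim in all tissues, well above background on 14 kidney arrays and on 1 array each of GM and liver.

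Of the 6 carriers of organic ions, 3 were highest in kidney, 1 was highest in liver and 1 was lowest in liver. SLC22A2, the organic cation carrier of the basolateral proximal tubule, ranged from 13.77 to 15.39 in kidney (median 14.54), from 5.01 to 6.53 in GM (median 5.47) and from 5.03 to 6.88 in liver (median 5.39). It was well above background on 1 GM array and 3 liver arrays, and kidney exceeded GM by 9.03 ± 0.151 and liver by 9.01 ± 0.151 (adjusted p = 4.71e-44 and 1.55e-43). These differences too were taken mostly against near-background signals. SLC22A8, an organic anion carrier of the same membrane, had values from 9.53 to 11.87 in kidney (median 10.77) and from 5.13 to 6.56 in GM (median 5.42), and was well above background on 1 GM array and no liver array. The kidney signal was 5.18 ± 0.139 above GM (adjusted p = 5.07e-35), again mostly against near-background signals, and at least 33.0-fold above liver, with no overlap. SLC22A6, the other main organic anion carrier of this cell, was highest in kidney by both probes, at 12.60 ± 0.97 with A_72_P303324 and 9.37 ± 0.66 with A_72_P087891. SLC22A7, an organic anion carrier of the hepatocyte, was the widest call in liver. Its liver values lay between 9.19 and 12.34 (median 10.88), those of kidney between 6.38 and 7.54 (median 6.67) and those of GM between 6.18 and 7.29 (median 6.73). All 16 livers were higher, by 4.01 ± 0.19 over kidney and 4.06 ± 0.19 over GM (adjusted p = 2.69e-24 and 9.67e-25), whereas kidney and GM differed by only 0.05. SLCO3A1, an organic anion carrier found in many tissues, was lowest in liver (7.41 ± 0.49, against 10.45 ± 0.54 in GM and 9.73 ± 0.42 in kidney), and SLC10A7 was dim, between 6.02 and 6.29 on average in each tissue.

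Among carriers of vitamins and choline, SLC44A4 stood out. This choline carrier-like protein, which also transports a phosphorylated form of thiamine, was highest in kidney by 3 of its 4 probes. The brightest, A_72_P026961, had its lowest, median and highest signals at 14.93, 15.39 and 16.27 in kidney, at 7.47, 8.22 and 9.01 in liver and at 5.29, 6.28 and 6.72 in GM, where 7 arrays had it well above background. The 3 tissues did not overlap, and kidney exceeded liver by 7.25 ± 0.128 and GM by 9.21 ± 0.128 (adjusted p = 1.45e-42 and 1.47e-47). The dimmest probe, A_72_P255967, differed by 0.96 between kidney and liver and was not called. SLC46A2, a relative of the intestinal folate carrier, was at 10.84 ± 0.48 in kidney, 9.04 ± 0.33 in liver and 7.21 ± 0.44 in GM. The riboflavin carrier SLC52A2 and the ascorbate carrier SLC23A2 were neither highest nor lowest in any tissue.

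Nucleoside, metal and mitochondrial carriers had smaller differences than the widest ones above. SLC28A1, a sodium-coupled nucleoside carrier, and SLC29A3, a nucleoside carrier of lysosomes, were highest in kidney, at 8.03 ± 0.61 and 10.90 ± 0.29. The nucleotide sugar carriers SLC35A3 and SLC35A4 were not called by their brightest probes, but a second SLC35A4 probe, A_72_P147051, was highest in GM by 1.09 over liver and 1.68 over kidney. Of the 6 metal carriers, SLC30A1 (zinc export), SLC31A1 (copper uptake) and SLC39A7 (zinc release from the endoplasmic reticulum) were lowest in GM, by 1.59, 1.06 and 1.61 from the nearest tissue. SLC31A1 was well above background on only 1 GM array, so the size of its difference is uncertain. SLC11A1, a metal carrier of macrophage phagosomes, was highest in liver, with values from 7.24 to 9.15 (median 8.04) against 6.21 to 8.51 in GM (median 6.86) and 6.08 to 7.66 in kidney (median 6.76). The ranges overlapped, but liver was higher in each of the 16 pigs, by 1.25 ± 0.174 over GM and 1.38 ± 0.174 over kidney (adjusted p = 1.1e-08 and 1.14e-09). The probes of the blood and immune cell markers, of 4 genes of 8 in that list, were also brighter in liver, with a median summed linear signal per array of 54255 (44866 to 77331), beside 5463 (3671 to 8235) in GM and 4165 (2911 to 5889) in kidney. The brightest probe was of CD14 in liver and of CD163 in the other tissues, every marker probe was well above background on some arrays of each tissue, and the part of these cells in the SLC11A1 values was not tested. With F2 E arrays alone, the smaller SLC11A1 difference was 0.97, below the 2-fold limit. SLC39A9 and SLC30A6, zinc carriers of the Golgi, were called in no tissue.

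Of the 3 mitochondrial carriers, each was called in another way. SLC25A3, which brings phosphate into the matrix for ATP synthesis, ranged from 16.24 to 17.04 in GM (median 16.65), from 14.88 to 15.99 in kidney (median 15.63) and from 14.67 to 15.37 in liver (median 14.96). GM did not overlap with either, and the differences were 1.1 ± 0.0911 from kidney and 1.68 ± 0.0927 from liver (adjusted p = 3.35e-15 and 1.18e-21). The smaller difference fell to 1.00 and lost its call without the 2 dimmest kidney arrays, and rose to 2.07 and 2.08 with the 2 scalings to the 75th percentile. SLC25A6, an exchanger of ADP and ATP, was highest in kidney with 1 probe (18.07 ± 0.19, against 16.58 in liver and 16.11 in GM), while its dimmer probe was not called. SLC25A25, which exchanges ATP-magnesium for phosphate, was lowest in kidney at 5.65 ± 0.18, with 8.17 ± 0.49 in GM and 7.70 ± 0.59 in liver. It was well above background on only 10 of 16 kidney arrays, so the size of its difference is uncertain. SLC9A3R1, a scaffold protein that carries the symbol of the carriers it anchors in the brush border but transports nothing itself, was highest in kidney (16.08 ± 0.35) and lowest in GM (9.98 ± 0.61).

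With the brightest probe of each gene, the most even among genes present in all 6 groups were SLC16A1, SLC52A2, SLC7A1, SLC30A6 and SLC35A4. SLC16A1, the carrier of lactate, pyruvate and ketone bodies, spanned 0.21 between tissue means, with medians of 7.77, 7.76 and 7.55 in GM, liver and kidney, and its ranges overlapped throughout. SLC52A2 spanned 0.23, with medians of 9.61, 9.93 and 9.82 in GM, liver and kidney. No pair of tissues passed the adjusted limit with these probes (smallest adjusted p 0.235 and 0.0997), whereas dimmer probes of both genes passed between some tissues, with tissue means that spanned 0.53 for SLC16A1 (A_72_P280129) and 0.26 and 0.40 for SLC52A2. The other 3 spanned 0.49 to 0.87, and the even probes are a description of the least varying genes rather than a test.

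From a list of genes that work with these carriers or control them, 4 are described here. The transcription factor HNF4A, which switches on carrier genes of the hepatocyte and the proximal tubule, was at 10.07 in liver and 9.76 in kidney and near background in all GM arrays. The chloride channel CLCN5 was highest in kidney by its only probe. The drug exporter ABCG2 was highest in liver by 2 of 3 probes and lowest in GM by the third. TXNIP, which restrains glucose uptake, was highest in GM by both probes. None of their probes passed the line test in any tissue (smallest limma adjusted p 0.347).

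Within lines, the pooled SD of the carriers tested in a tissue had a median of 0.33 beside 0.286 for all probes in GM, 0.35 beside 0.294 in liver and 0.404 beside 0.335 in kidney. Over the 16 pigs of a tissue, with the arrays normalized together and dim probes included, the median SD was 0.325 beside 0.316 in GM, 0.337 beside 0.289 in liver and 0.414 beside 0.296 in kidney. In this setting SLC12A1 had the widest kidney spread among the 60 probes, with an SD of 0.991, whereas within lines its SD was 0.93 and that of SLC35A3 was 0.96. Its highest value, 15.17, was in F2 C replicate 6 and its lowest, 11.18, in F2 E replicate 7. For 2 proximal tubule carriers, chosen after their values were seen, these kidneys lay the other way round. SLC34A1 had its lowest value, 14.96, and SLC22A6 (A_72_P303324) its lowest, 10.21, in F2 C replicate 6. Both had their highest values, 16.40 and 14.27, in F2 E replicate 7. Other carriers of this segment did not all peak there, such as SLC3A1, at 14.68 with A_72_P041371, the third lowest of the 16 kidneys, and SLC22A8, at 10.41. The cortex and proximal tubule markers, of which DAO had the brightest probe and probes of 2 of 6 genes were on the array, had a mean log2 signal of 12.28 in F2 C replicate 6, the lowest of the 16 kidneys (median 13.41, highest 13.96), and 13.30 in F2 E replicate 7. The medulla and distal nephron markers, CALB1 and AQP3 of 6 genes, were at 9.06 and 8.73 in these samples, among a range of 8.73 to 11.38. AQP3 was not particular to kidney in these data, with means of 7.93 in GM, 7.16 in kidney and 6.06 in liver. The part of these cortex and medulla markers in the spread of the carriers was not tested, and the labels do not say which part of each kidney was sampled. F2 E replicate 7 was also among the 2 kidney arrays with the lowest median raw signal (48).

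**Figure D2:**
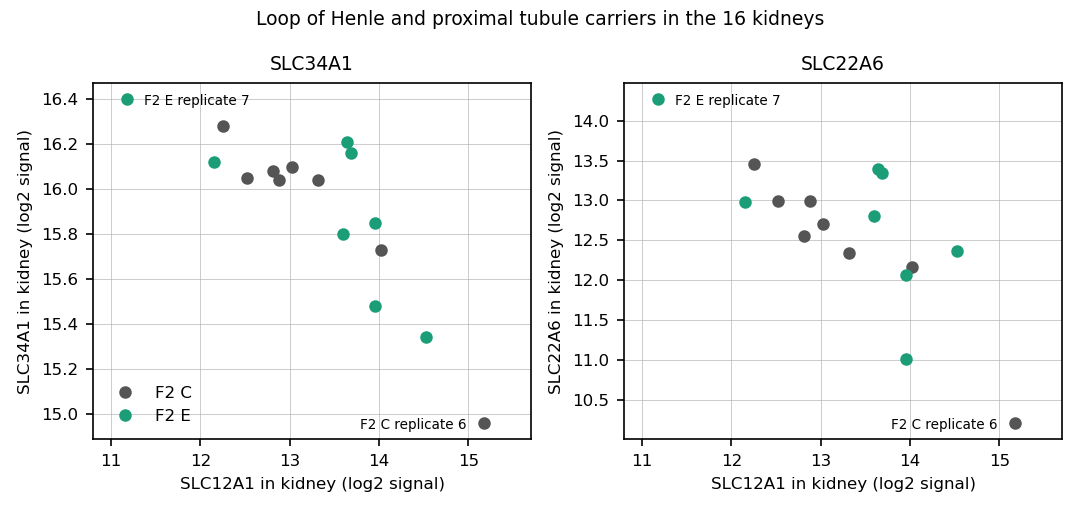
Quantile-normalized log2 signal of SLC12A1, a carrier of the loop of Henle, against that of the proximal tubule carriers SLC34A1 (left) and SLC22A6 probe A_72_P303324 (right) in 16 kidneys, 1 point per pig, F2 C in grey and F2 E in green. F2 C replicate 6 has the highest SLC12A1 value (15.17) and the lowest values of both others (14.96 and 10.21), and F2 E replicate 7 the reverse (11.18, 16.40 and 14.27).

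The line comparison asked whether carriers differed between F2 E and F2 C pigs in each tissue. None of the carriers passed an adjusted p of 0.05 in limma: 0 of 39 probes tested in GM, where 0.761% of all 25622 probes did, 0 of 48 in liver (0.0937% of 28823) and 0 of 60 in kidney (0.0119% of 33662). At an unadjusted p below 0.05 there were 5, 6 and 2 probes in GM, liver and kidney, where 16.1%, 8.32% and 3.84% of all probes were. The methods' t-test, run on the same values, also gave 0 after Benjamini-Hochberg adjustment in each tissue (0.492%, 0.0382% and 0.0149% of all probes). Before adjustment it gave 4, 5 and 1 probes below 0.05 (15.5%, 8.12% and 4.2% of all probes). At an unadjusted p below 0.01, limma had 1 carrier probe for GM (5.71% of all probes), 2 for liver (2.45%) and 1 for kidney (0.998%). The t-test had 0, 2 and 0 below that limit (5.49%, 2.15% and 1.05% of all probes). The median size of the log2 difference in GM was 0.131 over the carriers and 0.149 over all probes. It was 0.141 beside 0.117 in liver and 0.163 beside 0.104 in kidney. In liver 31 of 48 probes were lower in F2 E and 17 higher, in GM 21 and 18, and in kidney 28 and 32. Over all probes, 46.2% to 46.6% were higher in F2 E.

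**Figure D3:**
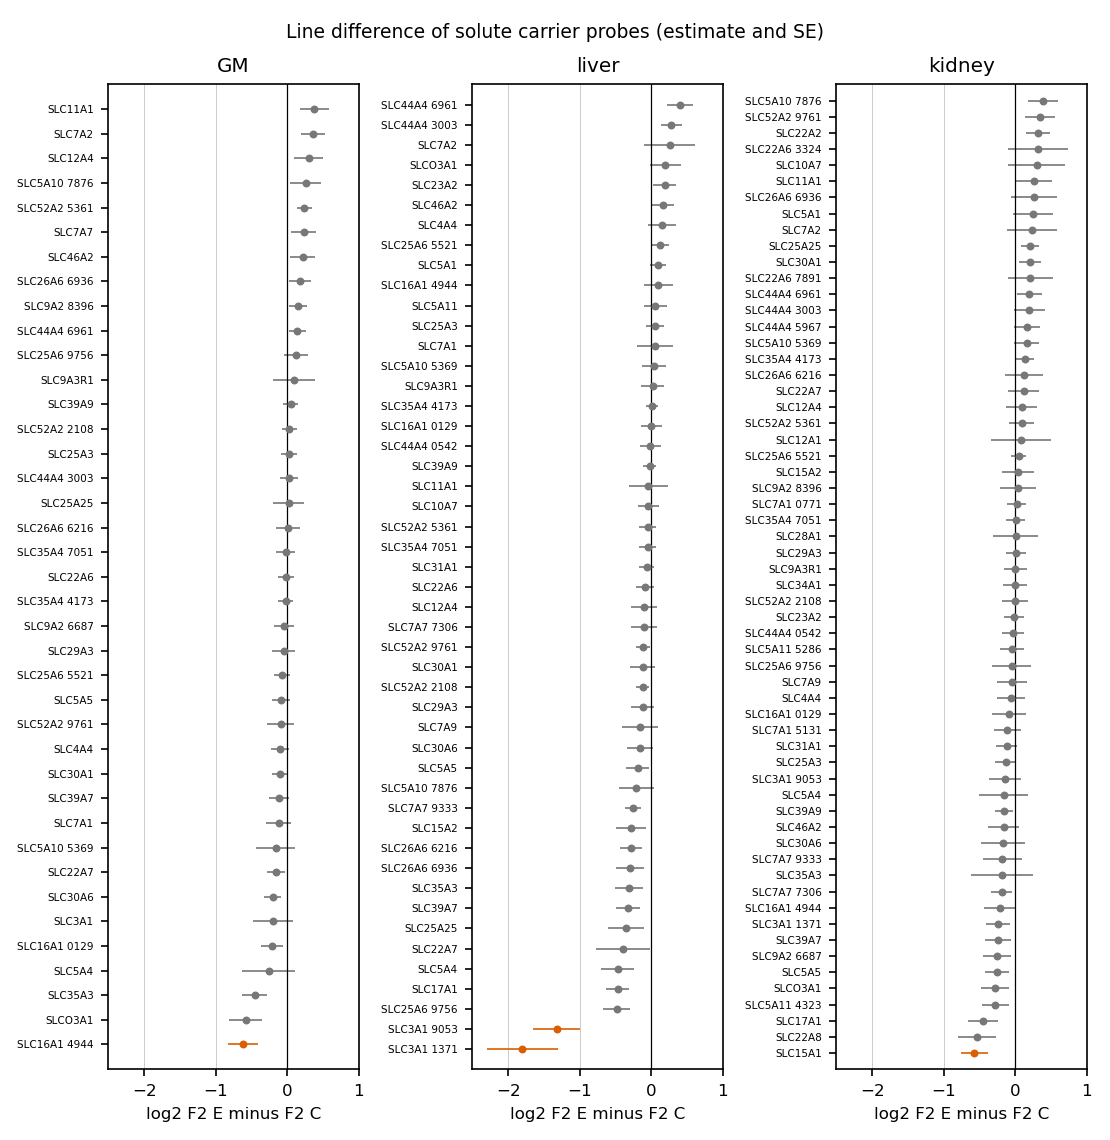
Difference F2 E minus F2 C on the log2 scale for every carrier probe tested in GM (39), liver (48) and kidney (60), with limma's SE, sorted by size. For genes with several probes, the last digits of the probe name follow the symbol. Orange marks an unadjusted p below 0.01, which 1, 2 and 1 probes had, and none of the probes passed after adjustment. Both SLC3A1 probes lie farthest from 0 in liver.

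The carrier with the largest line difference was SLC3A1 in liver, by both of its probes. With A_72_P041371 the lowest, median and highest signals were 12.80, 13.21 and 13.74 in F2 C and 9.21, 11.81 and 13.02 in F2 E. With A_72_P409053 they were 8.16, 8.70 and 9.07 in F2 C and 6.11, 7.31 and 8.37 in F2 E. The upper part of the F2 E range overlapped with F2 C, but all 8 F2 E livers lay below the F2 C median by each probe. The differences were -1.80 ± 0.501 (exact permutation p = 0.00357, limma adjusted p = 0.258) and -1.32 ± 0.328 (exact permutation p = 0.00295, adjusted p = 0.178), so neither passed over all probes tested. With the dimmer probe, 2 of the 8 F2 E livers were not well above background, so its differences include values near background.

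The low livers were not spread over the F2 E pigs. The pig numbers of the labels fell into a lower and an upper series with 4 pigs per line in each. The 4 F2 E livers of the upper series ran from 9.21 to 11.47 with A_72_P041371, the 4 of the lower series from 12.16 to 13.02, and the F2 C livers from 12.87 to 13.61 and from 12.80 to 13.74 in the lower and upper series. All 4 low livers had been hybridized on 1 slide, which held no F2 C array, so that for these pigs the slide and the group cannot be told apart. On the 2 slides that held both lines, 1 of barrows and 1 of females, the difference was -0.11 and -0.78 with A_72_P041371 and -0.53 and -0.66 with A_72_P409053. With slide as a fixed block, which takes the line difference from these 2 slides alone, it was -0.45 (adjusted p = 0.691) and -0.63 (adjusted p = 0.373). The livers of the lower series were those of the same 2 slides. Within that series the difference was -0.45 and -0.62, so these values rest on the same arrays and are not separate comparisons. Within the upper series it was -3.19 and -2.00 (adjusted p = 0.0441 and 0.0274, where 0.119% of all probes passed). When the fit took the number series as a block, A_72_P409053 passed at an adjusted p of 0.034 (0.16% of all probes passed) and A_72_P041371 did not (0.108), both with unchanged differences. With the scan day as a block, since 1 mixed slide was scanned on another day, the adjusted p was 0.0878 and 0.168, and on the later day alone the differences were -1.49 and -2.36 (0.121 and 0.168), in the order A_72_P409053 and A_72_P041371. The slide of the low livers had 24128 to 28087 spots well above background, beside 27169 to 30027 on the slide of the upper F2 C livers.

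In kidney, where SLC3A1 was brightest, the 4 F2 E pigs of the upper series had A_72_P041371 values from 15.04 to 15.47, beside 15.06 to 15.82 in the F2 C pigs of that series. Over both series, this probe differed by -0.24 ± 0.173 in kidney (exact permutation p = 0.209, adjusted p = 1), with all 8 F2 E kidneys below the F2 C median and overlapping ranges, and by -0.20 in GM. Leaving out 1 pig moved its GM value between -0.33 and -0.02. The dimmer probe differed by -0.14 in kidney, where 5 of 8 F2 E pigs lay above the F2 C median, and by 0.25 in the upper series. The difference between tissues was itself not called: the line by tissue test gave an adjusted p of 0.486 for A_72_P041371 and 0.246 for A_72_P409053. The partner subunit SLC7A9 differed by -0.16 in liver. The summed signal of the liver markers had a median of 3139475 in F2 C livers and 3189805 in F2 E livers. Spots marked as outliers are missing from these sums and lower them, as in F2 C replicate 1, at 1148525. The mean log2 signal of these markers had a median of 18.13 in F2 C and 18.01 in F2 E livers, the opposite order.

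**Figure D4:**
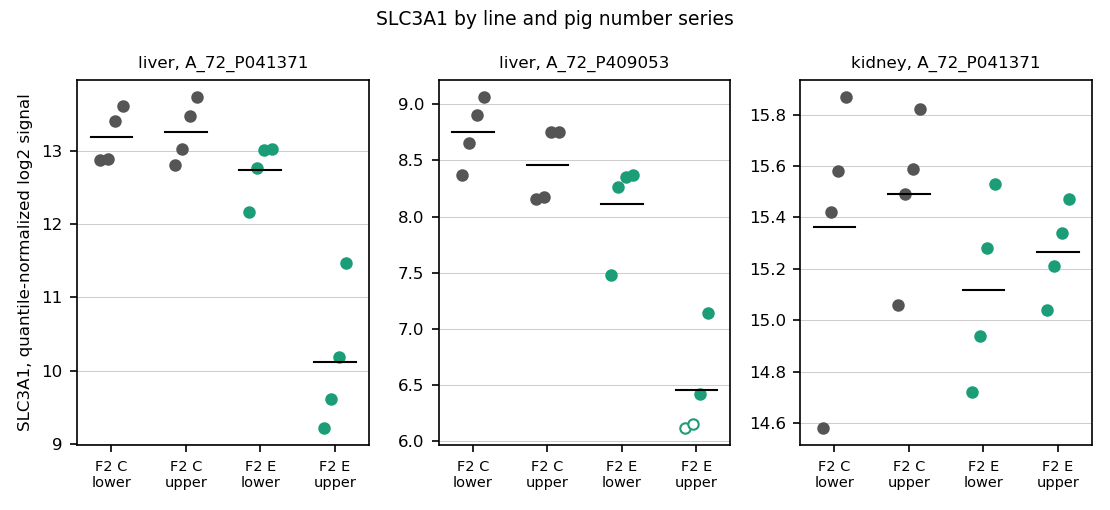
SLC3A1 signal in each pig by line and pig number series for both probes in liver and the brighter probe in kidney (quantile-normalized log2 within the tissue, with axes that do not start at 0). Bars are means of 4 pigs, and open circles mark arrays on which the spot was not well above background. The 4 F2 E livers of the upper series lie between 9.21 and 11.47 with A_72_P041371, below every other liver, whereas their kidneys lie between 15.04 and 15.47.

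In liver, 4 more probes were below an unadjusted p of 0.05, chosen for mention after their values were seen. SLC17A1 differed by -0.47 ± 0.165, lower in F2 E (exact permutation p = 0.0113, adjusted p = 0.412), and by -0.45 ± 0.215 in kidney. Its values ran from 11.45 to 12.63 in F2 C livers (median 11.82) and from 10.77 to 11.84 in F2 E livers (median 11.45), with overlap. SLC25A6 differed by -0.48 with A_72_P019756, but by 0.13 with its brighter probe. SLC7A7 differed by -0.25 with A_72_P389333, which was well above background on 5 F2 C and 0 F2 E livers, and by -0.10 with its brighter probe. SLC44A4 was higher by 0.40 ± 0.185.

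In GM, SLC16A1 had the smallest p in limma. With A_72_P294944 its lowest, median and highest signals were 6.87, 7.17 and 8.41 in F2 C and 6.35, 6.62 and 7.16 in F2 E. The ranges overlapped, but all 8 F2 E muscles were below the F2 C median. The difference was -0.62 ± 0.209 (exact permutation p = 0.0104, adjusted p = 0.164), and the second probe of the gene gave -0.21 ± 0.159. The highest F2 C values were those of the upper series, with a median of 7.61, and the difference was -0.16 in the lower series and -1.08 in the upper. In muscle each slide held only 1 line, and with slide as a random block the adjusted p was 0.751. The adipocyte markers, all 6 on the array with FABP4 as the brightest, had a median summed signal of 37529 in F2 C and 43795 in F2 E muscles (range of all 26204 to 82739), and their part in the GM values was not tested. The endothelial markers (2 of 4 genes, with the brightest probe of CDH5 in GM and liver and of PECAM1 in kidney) had median summed signals of 12882, 13432 and 12284 in GM, liver and kidney. Their mean log2 signal had medians of 10.77, 10.61 and 9.88 in the same order. Both CDH5 probes and PECAM1 probe A_72_P077376 had their lowest mean in kidney, whereas PECAM1 probe A_72_P218027 had its highest there (13.08). The similar sums thus do not hold for each marker. SLC35A3, chosen for mention after its values were seen, ran from 8.04 to 8.54 in F2 C (median 8.16) and from 6.57 to 8.06 in F2 E (median 7.92). The ranges barely overlapped, and the difference of -0.45 ± 0.175 had the smallest exact permutation p of all carriers (0.000311) but an adjusted p of 0.218 in limma. SLCO3A1 was also lower in F2 E, with a difference of -0.58 ± 0.232, and SLC52A2 (A_72_P035361) and SLC7A2 were higher, by 0.24 ± 0.105 and 0.36 ± 0.171, and none passed after adjustment. The brightest SLC52A2 probe, A_72_P119761, gave -0.09 and the third 0.03.

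The muscle arrays of 1 slide, 4 of F2 E pigs of the lower series, stood apart with 18948 to 21292 spots well above background, beside 21592 to 28754 on the other GM slides. Without these arrays, set aside after seeing the data, the SLC16A1 difference was -0.75 (adjusted p = 0.123), and SLC9A3R1 and SLC12A4 passed, at 0.85 and 0.77 (adjusted p = 0.0298 and 0.0289), from 0.10 and 0.30 with all arrays. In that setting 3.76% of all probes passed, and 2 of 41 carrier probes. Within the upper series, A_72_P119761 of SLC52A2 reached -0.68 and SLC9A3R1 0.79 (adjusted p = 0.0328 and 0.0492), where 4.03% of all probes passed, and 2 of 42 carrier probes. In these settings too, slide and line cannot be told apart.

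In kidney, SLC15A1 ranged from 6.35 to 7.32 in F2 C (median 6.71) and from 5.19 to 6.62 in F2 E (median 6.34). All 8 F2 E kidneys were below the F2 C median although the ranges overlapped, and 2 of the F2 E arrays were not well above background. The difference was -0.57 ± 0.191 (exact permutation p = 0.00497, adjusted p = 0.909). With background-corrected intensities at a common 75th percentile it was -1.12 (limma adjusted p = 0.52). With the median signal scaled likewise it was -0.33 (limma adjusted p = 0.986). Each kidney slide also held only 1 line, so slide and line cannot be told apart there, and with slide as a random block the limma p was 0.0284 (adjusted p = 1). The difference was -0.80 in the lower series and -0.27 in the upper, and -0.48 without the 2 dimmest kidney arrays, both F2 E and of the lower series. SLC17A1 was the only other kidney probe below an unadjusted p of 0.05.

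Of a list of methyl donor carriers, only SLC44A4 and SLC22A2 were among the named genes of the array. SLC44A4 differed between lines by 0.40 in liver, 0.20 in kidney and 0.14 in GM with its brightest probe, with adjusted p values of 0.587, 1 and 0.574. Leaving out 1 pig gave 0.31 to 0.50, 0.11 to 0.28 and 0.05 to 0.18 in these tissues. The other alternatives gave 0.21 to 0.80, -0.27 to 0.69 and 0.07 to 0.33. In GM the probe was well above background on 5 F2 C and 2 F2 E arrays, so that value includes signals near background. The kidney value changed direction to -0.27 within the upper series. In liver its signals ran from 7.63 to 8.88 in F2 C (median 8.10) and from 8.10 to 9.16 in F2 E (median 8.49), so that all 8 F2 E livers lay above the F2 C median although the ranges overlapped. The 3 other probes gave liver values of 0.28 and -0.01, and 1 that was not tested there. SLC22A2, which also carries choline, was tested in kidney only and ran from 14.16 to 15.21 in F2 C (median 14.66) and from 14.67 to 15.52 in F2 E (median 15.01). The difference was 0.32 ± 0.168 (exact permutation p = 0.0839, adjusted p = 1), with all 8 F2 E kidneys above the F2 C median and overlapping ranges.

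The line by tissue test, which asks whether the line difference depends on the tissue, called 0 of the 60 carrier probes in limma, against 0.122% of all probes, with 4 at an unadjusted p below 0.05 (5.52% of all probes) and 2 below 0.01 (1.66%). No carrier passed the test of barrows against females after adjustment. The counts were 0 of 39 in GM (0.121% of all probes), 0 of 48 in liver (0.118%) and 0 of 60 in kidney (0.0921%), with 4, 6 and 0 probes at an unadjusted p below 0.05 in limma (3.86%, 14.2% and 0.912% of all probes). The smallest adjusted p was 0.202, for SLC15A2 in liver, which was 0.54 ± 0.169 higher in barrows, followed by SLC5A11 in liver (0.40 ± 0.134). Liver slide 1 held only barrows and was the only liver slide scanned on another day, and slide 2 held only females. Sex in liver thus partly coincides with slide and scan day.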

How the data were processed

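Per the study's methods and the file headers, the authors scanned 1-colour Agilent porcine arrays, and the deposited files hold the median intensity of each spot, not normalized, with a background-corrected intensity and quality marks (Agilent Feature Extraction 10.5.1.1 per the file headers). Log2 median intensities of all probe spots were quantile-normalized, over 48 arrays for tissues and over 16 for lines. Spots marked as non-uniform or population outliers then left, and a probe's spots were averaged. A probe was tested if at least 50% of the arrays of 1 group had a signal above 25 and were well above background, with at least 2 values per group. Of 43603 probes, 2628 were named through the accessions of RefSeq's gene table. The 4803 probes with an Ensembl transcript matched no table, so carriers among them are missing here.

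Tests used limma 3.58.1 and statmod 1.5.0 in R 4.3.3 with Benjamini-Hochberg adjustment over all probes tested, for tissues with the pig as a random block (correlation 0.0301) and for line and sex within a tissue. Single values also had 2-sided exact tests, over 12870 ways to part 16 pigs (smallest p 0.000155) or over the signs of 16 paired differences. These tests, like limma's, take no account of litters or shared sires. Scripts were tested on simulated data. Figures used matplotlib 3.10.9. The authors' tables of their own comparison were not used. Members and gene lists were chosen with earlier results of these data known. Genes named in full were, per tissue, up to 8 called highest there with the largest smaller difference. Also named were the 5 most even by their brightest probe, the 4 probes with the smallest line p below 0.01 and measured methyl donor carriers. Any called by line, sex or line by tissue were named too. Whether replicate numbers pair the pigs of both lines was checked by correlation. The alternatives were other signals, scalings, filters, blocks and subsets of arrays.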

Additional observations from a re-analysis of the deposited data

Results flagged for a closer look

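In 122 groups of 8 pigs, 12 had a highest or lowest value that stood apart, as the gap to its nearest neighbour over the whole range of the group, where the limit is set so that chance alone marks about 1 group in 20. All values are log2 signals within a tissue, and no cause was tested.

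In GM, SLC52A2 (A_72_P119761) was highest in F2 E replicate 4 at 9.57, with the next at 8.90 (gap share 0.771). SLC11A1 was highest in F2 E replicate 2 at 7.75, with the next at 6.58 (0.648), and in the same sample SLC30A6 was lowest at 6.92, next to 7.55 (0.678), and SLC35A4 (A_72_P344173) lowest at 6.02, next to 6.51 (0.618). The array of this sample had the lowest median raw signal of all GM arrays (48). SLC44A4 (A_72_P026961) was lowest in F2 C replicate 6 at 5.09, next to 5.64 (0.632). SLC7A2 was highest in F2 C replicate 5 at 11.15, next to 10.42 (0.537).

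In kidney, F2 C replicate 6 was lowest for SLC34A1 at 15.17, next to 15.83 (0.560), and for SLC7A9 at 12.20, next to 12.98 (0.559). SLC16A1 (A_72_P294944) was highest in F2 C replicate 4 at 9.61, next to 8.32 (0.656), and SLC12A4 in F2 E replicate 5 at 9.33, next to 8.31 (0.615). In liver, SLC7A9 was highest in F2 E replicate 2 at 10.10, next to 8.89 (0.537), and SLC44A4 (A_72_P230542) in F2 C replicate 7 at 7.42, next to 6.67 (0.590).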

How the results depend on the processing

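The directions of the named tissue differences were the same under every alternative run, but their sizes moved with the scaling. With background-corrected intensities at a common 75th percentile, the smaller difference of SLC25A3 rose from 1.1 to 2.07 and that of SLC22A8 from 5.18 to 7.34. With the median signal scaled likewise, they were 2.08 and 4.61. The smaller SLC11A1 difference was 0.97 with F2 E arrays alone, and that of SLC25A3 was 1.00 without the 2 dimmest kidney arrays, an alternative chosen after seeing the data. Scaling the median signal to the 75th percentile moved the median over all probes to 0.38 for liver minus kidney, -0.25 for liver minus GM and -0.60 for kidney minus GM, from -0.02, 0.01 and 0.05.

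Of the tissue counts, probes lowest in liver were 6 of 60 with background-corrected intensities at a common 75th percentile (7.62% of all probes), which also gave 1 line by tissue call (SLC31A1, adjusted p = 0.0265, with 0.183% of all probes called). With only probes well above background on all 48 arrays, which leaves 24 carrier probes, 2 were highest in liver (6.5% of all 16055 probes), 6 highest in kidney (9.62%), 6 lowest in GM (8.04%) and 1 lowest in liver (6.08%).

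In GM, the count at an unadjusted p below 0.01 was 0 with the methods' t-test, the median signal scaled to the 75th percentile, sex as a covariate, slide as a random block and within the lower number series (1.61% to 6.89% of all probes). Within the upper series it was 5 of 42 (10.4% of all probes), with 2 called after adjustment (SLC52A2 probe A_72_P119761 at -0.68 and SLC9A3R1 at 0.79). Without the F2 E arrays of GM slide 2, set apart after seeing that they had the fewest spots well above background, it was 4 of 41 (9.4% of all probes), with 2 called (SLC9A3R1 at 0.85 and SLC12A4 at 0.77). Leaving out 1 pig gave 0 to 2. It was 0 without F2 E replicate 3, 4, 5 or 8 or F2 C replicate 1, 3, 4 or 6, and 2 without F2 C replicate 5 or F2 E replicate 6.

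In liver, that count was 1 with probes well above background on all 16 arrays and with slide as a random block (2.46% of all probes both times), 0 within slide 1 (1.65%) and 5 of 52 within slide 2 (2.29% of all probes). After adjustment, 1 was called with the number series as a block and 2 within the upper series, both SLC3A1. The scan day alternatives were chosen after seeing the data. In kidney, the count was 0 with the t-test, the median signal scaled to the 75th percentile, probes well above background on all 16 arrays, slide as a random block and without the 2 dimmest arrays (0.288% to 1.52% of all probes), 3 within the lower series (2.66% of all probes) and 2 within the upper (5.81%). Leaving out 1 pig gave 0 to 1, with 0 without F2 C replicate 2, 4, 5 or 8 or F2 E replicate 4, 6 or 7.

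Small line differences changed sign, and for these the cause was not tested. SLC44A4 probe A_72_P313003 in GM was -0.30 with the background-corrected signal and -0.16 in the lower series, with -0.07 to 0.09 when 1 pig was left out. Its kidney value was -0.46 in the upper series and -0.02 without the dimmest arrays. A_72_P230542 in liver was 0.18 with the median signal scaled to the 75th percentile, 0.20 within slide 1 and 0.06 in the upper series (-0.07 to 0.11 with 1 pig left out), and in kidney 0.32 in the lower series (-0.10 to 0.05). In the upper series, A_72_P255967 was -0.24 and A_72_P026961 -0.27 in kidney. SLC3A1 probe A_72_P409053 in kidney was 0.25 in the upper series, 0.07 without the dimmest arrays and -0.23 to 0.00 with 1 pig left out.

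With the replicate number as a block, the count below 0.01 was 0 for GM (4.85% of all probes), 4 of 48 for liver (3.46%) and 0 for kidney (0.713%). The labels do not say that the numbers pair the samples. Correlations of same-numbered F2 C and F2 E arrays ran from -0.154 to 0.335 for GM, from -0.089 to 0.587 for liver and from -0.577 to 0.459 for kidney, above 0.1 in 2, 6 and 3 of 8 pairs. In liver, the arrays of replicates 5 to 8 shared a slide with their namesake of the other line.

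Signal over background limits the dim carriers. No array was well above background for 10 carrier probes among the GM samples, for 6 among the livers and for 1 among the kidneys. The same counts over all probes are not given here, so these numbers describe the carriers only.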
